A study of Mus musculus with 17 samples.

Results

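Malat1, Neat1, Gas5, Snhg1, Snhg6, Snhg8 and Snhg12 are 7 mouse long noncoding RNA genes whose transcripts either stay in the nucleus or carry small nucleolar RNAs (snoRNAs) in their introns. They were chosen by name and found by Ensembl identifier among the 55335 genes of 17 count files. The files came from bulk RNA-seq of skeletal stem cells (SSCs) and of osteoprogenitor cells (OPCs), each sorted from digested mouse femur, tibia and hip bone. SSCs were sorted as CD45-, Lineage-, CD31-, CD51+, Sca-1+ and PDGFRα+ cells. OPCs were sorted as CD45-, Lineage-, CD31-, CD51+ and Sca-1- cells, either positive or negative for PDGFRα. Mice were WT (Cxcr4+/+) or carried the Cxcr4 1013 knock-in allele in 1 copy (+/1013) or on both alleles (1013/1013). This allele truncates the C-terminal tail of the chemokine receptor CXCR4 as in WHIM syndrome and leaves the receptor resistant to desensitization. There were 3 OPC libraries of each genotype, 3 SSC libraries of WT, 3 SSC libraries of +/1013 and 2 SSC libraries of 1013/1013. The study's methods give female littermates of 8 to 12 weeks unless specified otherwise, and the allele is a knock-in at the gene's own locus, not limited to a cell type. Each library came from a pool of 3000 cells of 3 mice, so p-values measure the spread between such pools. Counts per gene do not tell the 1013 allele from the WT allele, so they do not check the genotype labels.

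Malat1 is a long transcript retained in nuclear speckles, the bodies that store splicing factors. Its mature end is made by cleavage and is held in a triple helix rather than a conventional poly(A) tail. Neat1 is the RNA scaffold of paraspeckles, nuclear bodies built on its long form; a shorter, polyadenylated form shares the same start. The other members are snoRNA hosts: the snoRNAs cut from their introns guide chemical modification of ribosomal RNA, while the spliced exons of Gas5 and many Snhg transcripts are removed by nonsense-mediated decay during translation. Levels of such hosts therefore depend on both synthesis and decay, and counts of gene exons do not measure the snoRNAs themselves.

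The libraries were primed with oligo-dT, and such a primer can also anneal to a run of A inside a transcript, so those runs were counted. In GENCODE M21 annotation of mm10, 1 of 4 Malat1 transcripts, the one of 6983 bases, holds a run of 12 A. The run is at bases 6674 to 6685, with 298 annotated bases after it. Since the mature end is made by cleavage, whether those bases are on the mature RNA was not determined. The run is shown in capitals with its flanks, at chr19:5795928-5796044 on the minus strand.
Malat1: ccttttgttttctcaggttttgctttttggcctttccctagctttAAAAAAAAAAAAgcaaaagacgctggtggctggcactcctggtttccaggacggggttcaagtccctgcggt
Of 141767 annotated transcripts, 4.07% hold a run of 12 or more A. Among the other members, 2 of 10 Snhg12 transcripts hold such a run. The longest run was 7 A in Neat1 and 5 A in Gas5, Snhg1, Snhg6 and Snhg8.

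Transcription start windows, each 60 bases before to 20 after a RefSeq start in GRCm38.p6, were read for the 5 members with an entry; Neat1 and Snhg6 had none. They are shown because 4 of these genes are hosts whose mean level was higher in SSCs than in OPCs of every genotype, a choice made after seeing the levels. For Snhg12 in 1013/1013 the SSC and OPC ranges overlapped. Whether these letters go with the levels was not tested. The letters TATA (the same on both strands) are in capitals where they lie 40 to 20 bases before the start.
Malat1, chr19:5802653-5802732, minus strand: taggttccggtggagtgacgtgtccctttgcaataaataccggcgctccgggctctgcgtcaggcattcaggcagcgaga
Gas5, upstream start, chr1:161034541-161034620, plus strand: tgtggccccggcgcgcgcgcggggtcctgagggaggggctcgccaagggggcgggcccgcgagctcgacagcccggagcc
Gas5, downstream start, chr1:161035106-161035185, plus strand: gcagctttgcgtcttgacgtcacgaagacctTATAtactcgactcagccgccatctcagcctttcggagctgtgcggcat
Snhg1, chr19:8723427-8723506, plus strand: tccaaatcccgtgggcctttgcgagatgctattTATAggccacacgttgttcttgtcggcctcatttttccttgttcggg
Snhg8, chr3:123508317-123508396, minus strand: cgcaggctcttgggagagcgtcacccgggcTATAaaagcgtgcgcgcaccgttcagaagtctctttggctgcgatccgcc
Snhg12, chr4:132308618-132308697, plus strand: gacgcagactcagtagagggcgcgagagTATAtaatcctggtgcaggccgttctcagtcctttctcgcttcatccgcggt
Each of these 4 hosts had a start with TATA in that range, though the upstream Gas5 start did not hold it. Of all 32851 RefSeq start windows 5.34% held it, which is a share of windows and not of genes. Malat1 had none. The match describes the letters only.

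Malat1 (ENSMUSG00000092341.3, chr19:5795690-5802672, minus strand, mm10) and Neat1 (ENSMUSG00000092274.3, chr19:5824708-5845478, minus strand) lie close together on chromosome 19, and their merged exons span 6983 and 20771 bases. Gas5 (ENSMUSG00000053332.13) is at chr1:161034422-161038539 on the plus strand. Annotation places 10 small RNA genes of the snoRNA class over its exons, since retained-intron transcripts are included. Snhg1 (ENSMUSG00000108414.1) is at chr19:8723475-8726443 on the plus strand and has 8 snoRNA genes placed the same way. Snhg6 (ENSMUSG00000098234.7) is at chr1:9941959-9944118 on the minus strand with Snord87 in an intron. It shares 127 exon bases with Mcmdc2 on the opposite strand, which had at most 22 counts in a library, so a few Snhg6 reads cannot be assigned with certainty. Snhg8 (ENSMUSG00000104960.1, chr3:123507552-123508404, minus strand) holds Snora24, and Snhg12 (ENSMUSG00000086290.9, chr4:132308623-132311024, plus strand) holds 5 snoRNA genes. Of the snoRNA genes within the hosts, Snord87, the only one in an intron, was the only one with any count, up to 11 in a library. The others lie over host exons on the same strand, where a read overlaps both genes and may be set aside as ambiguous. Their lack of counts therefore cannot show whether these snoRNAs were present. Reads of Gas5, Snhg1, Snhg8 and Snhg12 over those genes may be lost in the same way, to an extent not measured.

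The 9 OPC libraries held 64099849 to 92683497 reads counted in genes, and the 8 SSC libraries 44217695 to 50509592. The type I collagen genes Col1a1 and Col1a2 took 16.1% to 38.7% of OPC counts and 0.563% to 2.78% of SSC counts. Levels are therefore given as CPM (a gene's count as a share of the library total, on the usual CPM scale, with totals scaled by edgeR's TMM factors), which reduces the weight of such genes. Ly6a, which encodes the Sca-1 used in the sort, ran from 385.7 to 1450 CPM in SSCs and from 0.569 to 12.4 CPM in OPCs. The SSC libraries differed by genotype in general properties. Reads counted in no annotated feature (the no-feature share) made up 3.68% to 4.15% of reads in SSC WT and 1.504% to 2.69% in SSCs of both mutants, and 21449 to 22599 genes had a count in SSC WT against 15748 to 19227 in the mutants. These library properties and the genotype cannot be told apart there. The summed hematopoietic markers (10 genes) reached 6963 CPM in OPC WT replicate 3, 6216 CPM in OPC 1013/1013 replicate 2 and 4342 CPM in SSC WT replicate 3, and were at most 1102 CPM elsewhere. In such bulk samples, fewer cells of a type and less RNA per cell cannot be told apart.

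All 7 members passed the filter on low counts in every comparison. Malat1 was counted 6695 to 52969 times in a library, Neat1 323 to 24879, Gas5 1128 to 5258 and Snhg1 131 to 854. Snhg6 had 26 to 163 counts and Snhg8 had 14 to 431. Snhg12 had 0 to 151 and was not counted in OPC 1013/1013 replicate 3 or in SSC 1013/1013 replicate 1. A count of 0 allows up to 3 counts, which is 0.0450 and 0.0678 CPM of these library totals, for counting error only.

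Compared per kilobase of merged exon, Malat1 had the highest level of the members in all 6 groups, from a mean of 30.3 ± 14.9 (SD, n = 3) CPM per kb in SSC +/1013 to 104.9 ± 16.2 (n = 3) in SSC WT. Snhg12 had the lowest, from 0.0921 ± 0.0428 (n = 3) in OPC WT to 0.920 ± 0.275 (n = 3) in SSC +/1013. Between them, Gas5 ranged from 7.54 to 19.5 as group means and Snhg8 from 1.03 to 5.86. Neat1 was the member that changed place most: at 0.521 to 0.614 CPM per kb in OPC groups it stood below Gas5, Snhg1, Snhg6 and Snhg8, and at 13.4 ± 4.18 (n = 3) in SSC WT it stood next below Gas5. Its divisor is the length of the long form, so reads of the short form count for less on this scale.

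**Figure D1:**
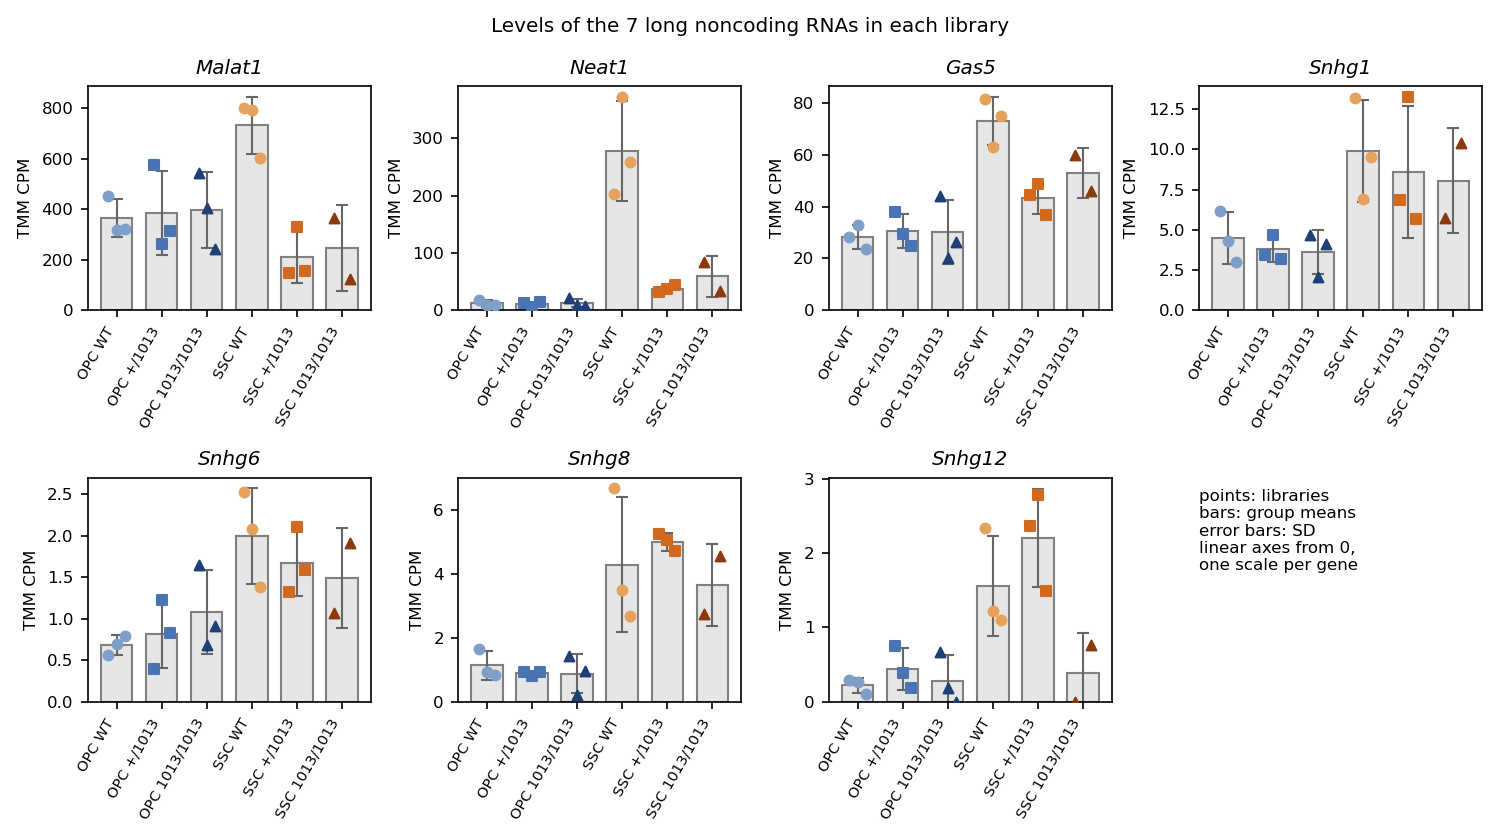
TMM-scaled CPM (linear axes from 0, a separate scale for each gene) of the 7 members in the 17 libraries, with points for libraries, bars for group means and error bars for SD. Malat1, Neat1 and Gas5 are highest in the 3 SSC WT libraries, with Neat1 at 202.4 to 372.6 CPM there and at or below 84.0 CPM in every other library.

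Neat1 set the cell types apart in every genotype. In WT, its level was 202.4, 372.6 and 258.1 CPM in the 3 SSC libraries and 18.5, 8.27 and 8.35 CPM in the 3 OPC libraries. Every SSC library was above every OPC library, and the lowest SSC value exceeded the highest OPC value by a wide margin. The log2 difference was 4.57 (SE 0.53), a 23.7-fold higher level in SSCs, with an adjusted p of 0.000136 (edgeR's quasi-likelihood test, Benjamini-Hochberg over 20238 genes). In this comparison 5.55% of genes tested were called higher, where called means past both an adjusted p of 0.05 and a 1.5-fold difference.

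In +/1013, Neat1 was at 31.8, 37.0 and 44.2 CPM in SSCs and at 12.1, 6.27 and 14.0 CPM in OPCs, again without overlap. The log2 difference was 1.80 (SE 0.47, adjusted p = 0.0237 by edgeR), and 6.44% of genes were called higher. In 1013/1013, Neat1 was at 84.0 and 33.7 CPM in SSCs against 20.7, 9.49 and 8.09 CPM in OPCs. The log2 difference was 2.20 (SE 0.51, adjusted p = 0.0128 by edgeR), and 6.94% of genes were called higher. The direction held with any library left out. The call in +/1013 was lost without OPC replicate 1 or 2 or SSC replicate 2 or 3 (adjusted p up to 0.0960), and that in 1013/1013 without SSC replicate 1 (log2 difference 1.40, adjusted p = 0.200). Without the 3 libraries richest in hematopoietic markers, Neat1 had log2 differences of 4.43 in WT, 1.80 in +/1013 and 2.03 in 1013/1013, the last with an adjusted p of 0.0562 by edgeR and so not called. With only the groups compared in the fit, the 1013/1013 difference also missed the threshold (adjusted p = 0.106).

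Malat1 had a log2 difference between SSCs and OPCs above 0 in WT and below 0 in both mutants. None of these was called by the main test, and neither was the change from WT, tested further below. In WT, Malat1 was at 802.5, 793.4 and 601.8 CPM in SSCs and at 452.5, 317.7 and 323.1 CPM in OPCs. The ranges did not overlap, and the log2 difference of 1.01 (SE 0.45) had an adjusted p of 0.166, so it was not called by edgeR. With only the WT groups in the fit it was called (adjusted p = 0.0372). In the mutants the difference had the opposite sign: Malat1 was at 149.1, 331.2 and 154.0 CPM in +/1013 SSCs against 574.0, 263.9 and 314.0 CPM in the matching OPCs, a log2 difference of -0.86 (SE 0.45, adjusted p = 0.227). In 1013/1013 it was at 365.2 and 124.7 CPM in SSCs against 542.0, 406.2 and 241.5 CPM in OPCs, a log2 difference of -0.70 (SE 0.50, adjusted p = 0.365). The SSC and OPC ranges overlapped in both mutants, and neither of these Malat1 differences was called by the main test. Both were called with the no-feature share in the fit, as given with that share. Under that fit the Malat1 difference in WT was also below 0 (-1.41).

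The ratio of Neat1 to Malat1 within a library needs no scaling between libraries. In the 9 OPC libraries there were 2.11 to 4.47 Neat1 counts per 100 Malat1 counts. In SSC WT there were 25.2, 47.0 and 42.9, in SSC +/1013 21.3, 11.2 and 28.7, and in SSC 1013/1013 23.0 and 27.0. Every SSC library lay above every OPC library, whatever the genotype. Between SSC WT and the mutant SSCs the ratios overlapped.

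The genotype comparison within SSCs was aimed at what the 1013 allele does in the stem cell compartment. Relative to SSC WT, Neat1, Malat1 and Gas5 had lower levels in both mutants, with no overlap between groups. None of them passed the threshold of the main test. Markers of other cells also differed, in both directions. Of 7 endothelial markers, 5 had log2 differences above 0 in +/1013 and 7 in 1013/1013 (medians 0.438 and 1.46, none called by edgeR). Of 5 muscle markers, 4 lay above 0 in each mutant (medians 0.815 and 1.95, none called). All 7 erythroid markers lay below 0 in each (medians -0.955 and -1.01, none called). Of 10 hematopoietic markers, 10 had log2 differences below 0 in +/1013 (median -4.51, 9 with an unadjusted p under 0.05, none called by edgeR) and 8 in 1013/1013 (median -0.84). Their sum was 231.3 to 4342 CPM in SSC WT, 41.1 to 100.8 CPM in SSC +/1013 and 500.8 to 1102 CPM in SSC 1013/1013, and Ptprc and Kit were each at 0 in 1 +/1013 library. Of 8 osteoblast lineage markers, 8 and 7 lay below 0 (medians -1.10 and -0.75, none called), and their sum was 16469 to 21876 CPM in WT, 5729 to 10756 CPM in +/1013 and 7377 to 11350 CPM in 1013/1013. Mean Ly6a was 463.3, 1082 and 1144 CPM in WT, +/1013 and 1013/1013. The part of these markers in the members' differences was not tested. For Neat1 in +/1013 the values above gave means of 37.7 ± 6.25 CPM (SD, n = 3) against 277.7 ± 86.8 CPM (n = 3) in WT. The log2 difference was -2.90 (SE 0.40), with an unadjusted p of 0.000110 and an adjusted p of 0.0541 by edgeR's quasi-likelihood test. For Neat1 in 1013/1013, the mean was 58.9 ± 35.6 CPM (n = 2), the log2 difference -2.21 (SE 0.46) and the adjusted p 0.107. Malat1 had means of 211.4 ± 103.7 CPM (n = 3) in +/1013 and 244.9 ± 170.1 CPM (n = 2) in 1013/1013 against 732.6 ± 113.3 CPM (n = 3) in WT. Its log2 differences were -1.81 (SE 0.48, adjusted p = 0.158) and -1.55 (SE 0.55, adjusted p = 0.212). The spread within the mutants was large, since Malat1 was at 331.2 and 365.2 CPM in 1 library of each mutant and at 124.7 to 154.0 CPM in the others.

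By edgeR, 13 genes, or 0.0736% of 17659 tested, were called in +/1013 against WT, and 0% in 1013/1013 against WT; 17.3% and 18.3% had an unadjusted p under 0.05. Groups that do not overlap were common: 16.2% of genes lay lower in all +/1013 than in all WT libraries, and 24.4% in 1013/1013. DESeq2's Wald test called more genes, 8.33% and 10.4%. It called Neat1 in both mutants (adjusted p = 3.036e-10 in +/1013 and 8.54e-05 in 1013/1013), Malat1 in both (0.00316 and 0.0341) and Gas5 in +/1013 (0.0124). Under edgeR, Neat1 was also called in +/1013 with at least 10 counts in every library (adjusted p = 0.0342) and with all 17 libraries in one fit (0.0212), and in 1013/1013 without 1013/1013 replicate 2 (0.0343). These calls therefore depended on the tool and, for Neat1, also on the filter, the fit and the libraries kept. Without SSC WT replicate 3, 1 of the libraries rich in hematopoietic markers, the log2 differences of Neat1 were -2.94 and -2.25 and those of Malat1 -1.92 and -1.67, none called by edgeR. The median log2 difference of all genes tested was -0.113 in +/1013 and -0.234 in 1013/1013.

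Malat1 moved with the no-feature share within OPCs. Over the 9 OPC libraries, which include all genotypes, log2 CPM of Malat1 and the no-feature share had Pearson's r of 0.912 (exact permutation p = 0.000284, adjusted over the 7 members 0.00199) and Spearman's rho of 0.917 (exact permutation p = 0.00131, adjusted 0.00918). Without the 2 libraries with the most extreme shares (replicate 1 of +/1013 and of 1013/1013), r was 0.914 over 7 libraries. For Neat1, r was 0.697 (exact permutation p = 0.0353, adjusted 0.116) and rho 0.667 (p = 0.0589 by exact permutation, adjusted 0.206), with r of 0.505 over the 7. For Gas5, r of 0.666 (exact permutation p = 0.0499, adjusted 0.116) became -0.356 over the 7, so it rested on those 2 libraries. Snhg1, Snhg6, Snhg8 and Snhg12 had r of 0.0299 to 0.559, none with an adjusted exact permutation p under 0.217. Over the 7 libraries Snhg6 had r of -0.878, against 0.0299 over all 9, so its value too rested on those 2 libraries. Each genotype has 3 OPC libraries, too few for a value within genotype. Replicate 1 of 1013/1013 and of +/1013 also had the lowest type I collagen shares of the OPC libraries (16.1% and 25.6%). Their sums of dissociation stress genes were the highest of the OPC libraries (22520 and 19371 CPM). Which of these properties Malat1 went with was not tested.

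The 5 mutant SSC libraries followed the same order. Their no-feature shares of 2.69%, 1.80%, 1.59%, 1.53% and 1.504% went with Malat1 levels of 365.2, 331.2, 154.0, 149.1 and 124.7 CPM. With the no-feature share added to the fit, a choice made after seeing these values, Malat1 had a log2 difference of 1.10 in +/1013 and 0.58 in 1013/1013 against WT, Neat1 had -0.25 and -0.27, and Gas5 had -0.30 and -0.08 (adjusted p of 0.553 or more by edgeR). Since the shares of SSC WT and mutant SSCs do not overlap, that fit rests on the spread inside the groups. Under the same fit, neither Neat1 nor Gas5 was called between SSCs and OPCs in WT (log2 differences 2.31 and 0.39), whereas Neat1 was still called in +/1013 and in 1013/1013 (1.68 and 1.96). Malat1 was called lower in SSCs than in OPCs under this fit in +/1013 (-0.94, adjusted p = 0.0310 by edgeR) and in 1013/1013 (-1.07, adjusted p = 0.0348).

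**Figure D2:**
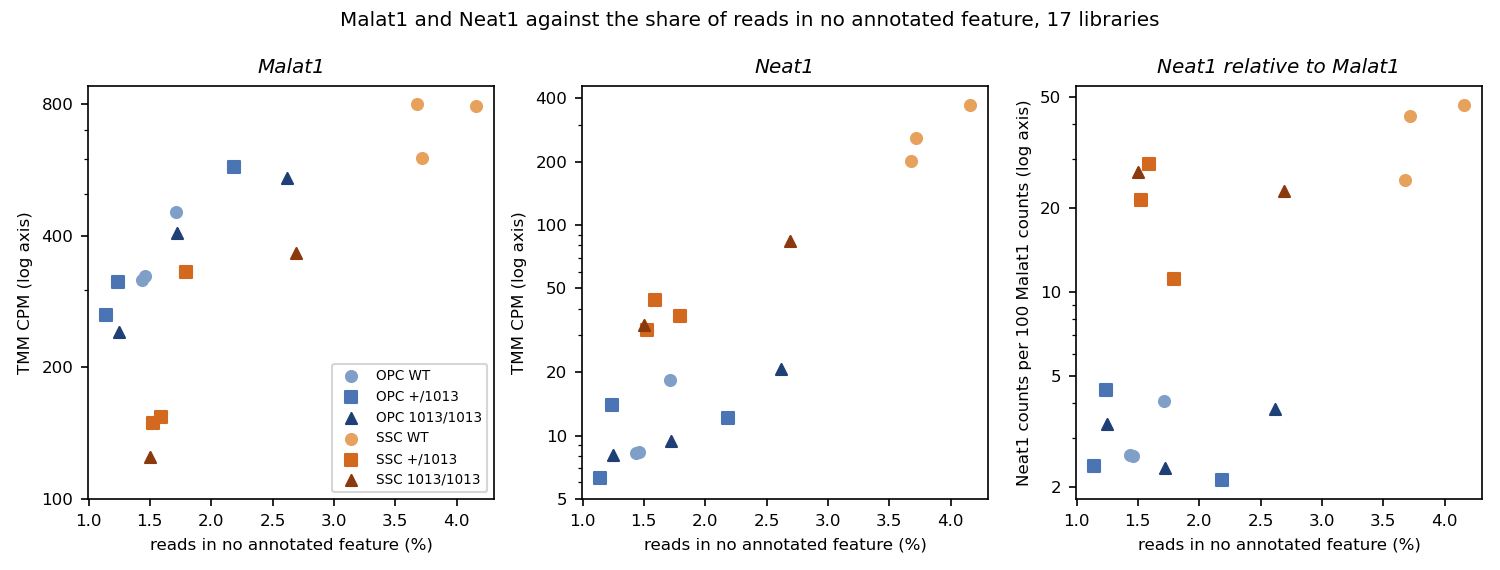
Malat1 and Neat1 (TMM-scaled CPM, log axes) and Neat1 counts per 100 Malat1 counts (log axis) against the percentage of reads in no annotated feature, with 1 point for each of 17 libraries. The 3 SSC WT libraries lie apart at 3.68% to 4.15%, Malat1 rises along the axis within the 9 OPC libraries (r = 0.912), and the ratio separates all SSC from all OPC libraries.

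Gas5, the most abundant snoRNA host of the set, was at 81.4, 63.1 and 75.0 CPM in WT SSCs and at 28.4, 33.0 and 23.6 CPM in WT OPCs. All SSC values were above all OPC values. The log2 difference was 1.37 (SE 0.27, adjusted p = 0.00568 by edgeR), a 2.58-fold higher level. It was 1.24 (adjusted p = 0.0430 by edgeR) without the 3 libraries rich in hematopoietic markers, 1 of which is of OPC 1013/1013. In +/1013, Gas5 was at 44.5, 48.7 and 36.7 CPM in SSCs against 37.9, 29.3 and 24.7 CPM in OPCs, with a log2 difference of 0.50 (SE 0.27, adjusted p = 0.247) and overlapping ranges. In 1013/1013 it was at 59.8 and 46.1 CPM in SSCs against 44.2, 20.1 and 26.5 CPM in OPCs, with no overlap and a log2 difference of 0.81 (SE 0.30, adjusted p = 0.0943). Within SSCs, Gas5 had log2 differences from WT of -0.78 in +/1013 (SE 0.20, adjusted p = 0.158) and -0.45 in 1013/1013 (SE 0.23, adjusted p = 0.322), neither called.

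Snhg8, which hosts Snora24, was the other host with a call. In +/1013 it was at 5.24, 5.06 and 4.70 CPM in SSCs and at 0.922, 0.816 and 0.921 CPM in OPCs. These groups were tight and far apart, with a log2 difference of 2.49 (SE 0.67, adjusted p = 0.0261 by edgeR). In WT it was at 6.67, 3.51 and 2.67 CPM against 1.66, 0.926 and 0.838 CPM, with a log2 difference of 1.91 (SE 0.66, adjusted p = 0.0782). In 1013/1013 it was at 2.73 and 4.56 CPM against 1.44, 0.221 and 0.968 CPM, with a log2 difference of 2.05 (SE 0.71, adjusted p = 0.0728). Thus all SSC libraries, at 2.67 CPM or more, lay above all OPC libraries, at 1.66 CPM or less. The +/1013 call was lost whenever any library of that genotype was left out, with adjusted p-values of 0.05005 to 0.0876, while the log2 difference stayed at 2.42 to 2.54.

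Snhg1 had a nearly equal difference in all genotypes. Its SSC values were 13.2, 6.94 and 9.56 CPM in WT, 6.84, 13.3 and 5.66 CPM in +/1013, and 5.74 and 10.4 CPM in 1013/1013. Its OPC values ran from 2.07 to 6.19 CPM. The groups did not overlap within any genotype. Log2 differences between SSCs and OPCs were 1.14 (SE 0.47), 1.19 (SE 0.48) and 1.15 (SE 0.52) in WT, +/1013 and 1013/1013, with adjusted p-values of 0.142, 0.124 and 0.162 by edgeR. Within SSCs its groups overlapped, with differences from WT of -0.23 and -0.29 (SE 0.47 and 0.53).

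Snhg6 was at 2.52, 2.08 and 1.38 CPM in WT SSCs and at 0.557, 0.699 and 0.796 CPM in WT OPCs, without overlap. The log2 difference was 1.54 (SE 0.65, adjusted p = 0.146 by edgeR). It was 1.04 (SE 0.64) in +/1013, where SSCs ran from 1.32 to 2.11 CPM and OPCs from 0.3996 to 1.22 CPM. In 1013/1013 the ranges overlapped, with SSCs at 1.06 and 1.92 CPM, OPCs at 0.680 to 1.65 CPM and a difference of 0.46 (SE 0.70).

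Snhg12 was the scarcest member. In WT it was at 2.34, 1.23 and 1.11 CPM in SSCs and at 0.299, 0.260 and 0.105 CPM in OPCs, with a log2 difference of 2.80 (SE 1.55, adjusted p = 0.264 by edgeR). In +/1013 it was at 2.36, 2.78 and 1.49 CPM in SSCs and at 0.753, 0.389 and 0.184 CPM in OPCs. Both pairs of groups were without overlap. In SSC 1013/1013 it was at 0 and 0.764 CPM, below all other SSC libraries, and the log2 difference from WT was -2.03 (SE 1.61, adjusted p = 0.504). The library at 0 also had the fewest genes with a count of all 17 (15748) and the highest mitochondrial share (2.36%), whose part in this value was not tested. Without the other 1013/1013 library, which leaves that library alone, Snhg12 was called against WT (adjusted p = 0.0128).

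Counted together in WT, all 7 members lay higher in every SSC library than in every OPC library, where 22.2% of genes did so, and 2 were called. The members' median log2 difference was 1.54 and that of all genes 0.17. In +/1013, 5 members lay higher without overlap (18.1% of genes did so), and the median was 1.19 against 0.00 for all genes. In 1013/1013, 4 did so (18.4% of genes), and the median was 0.81 against -0.20. These 3 comparisons use separate libraries. DESeq2 called 4 members higher in WT (Neat1, Gas5, Snhg6 and Snhg8, with 21.1% of genes called in either direction), 2 in +/1013 (Neat1 and Snhg8, 23.5%) and the same 2 in 1013/1013 (26%).

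**Figure D3:**
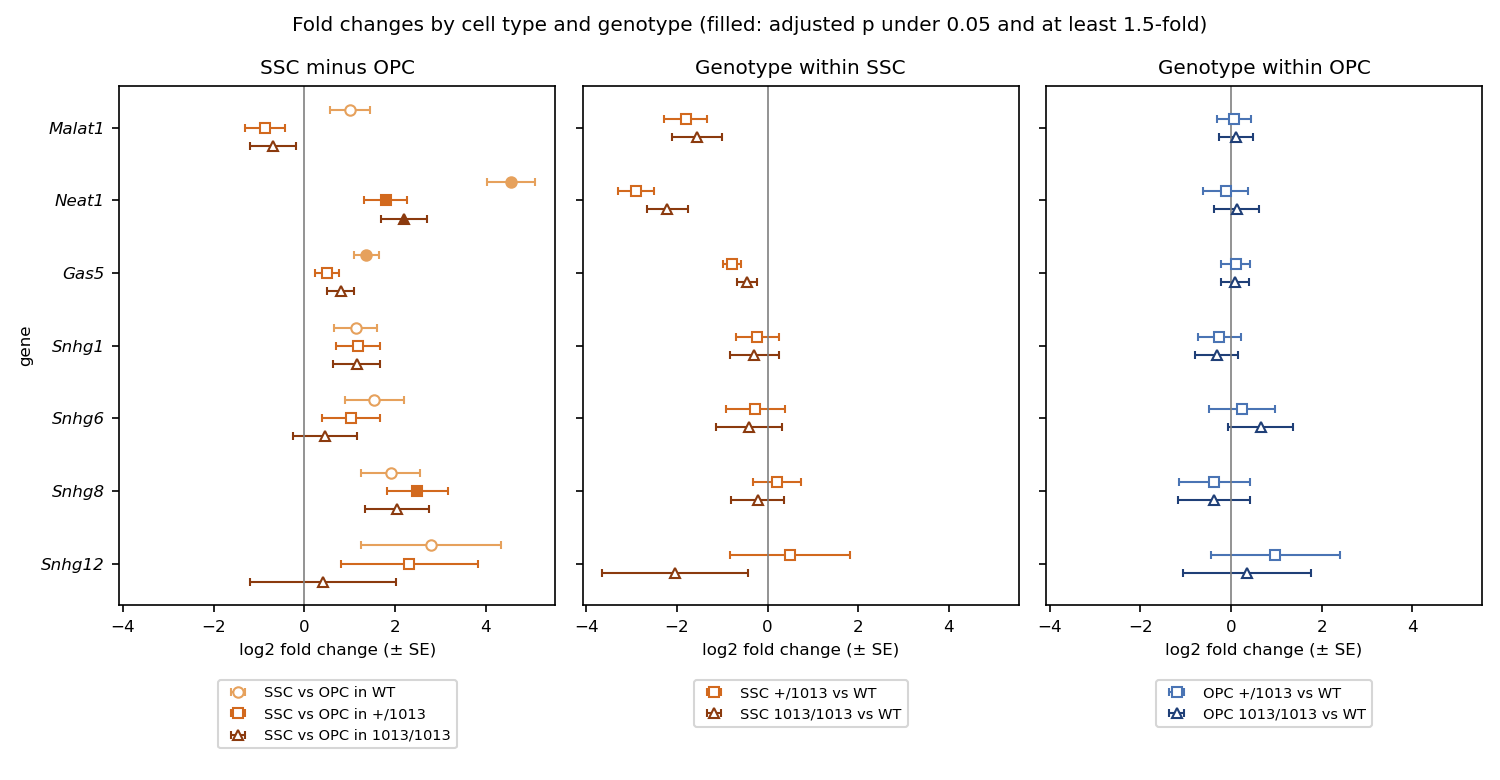
Log2 differences of the 7 members (horizontal axis, error bars SE) between SSCs and OPCs within each genotype, and between mutants and WT within SSCs and within OPCs, with filled symbols for calls. Neat1 is called in SSCs against OPCs in all genotypes, Gas5 in WT and Snhg8 in +/1013, and no member is called between genotypes.

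Within OPCs the 1013 allele went with no called difference in any member. For 1013/1013 against WT, 0.00617% of genes were called (1 gene), for +/1013 against WT 0% and for 1013/1013 against +/1013 0%. At an unadjusted p under 0.05 there were 3.38%, 2.04% and 3.17% of genes, and none of the members. Every member's ranges overlapped in each of these comparisons, where 7.61%, 5.28% and 7.34% of genes did not overlap. Malat1 had means of 364.4 ± 76.3, 384.0 ± 166.5 and 396.6 ± 150.5 CPM in WT, +/1013 and 1013/1013 (SD, n = 3 each), and log2 differences from WT of 0.07 and 0.12 (SE 0.37 each). Neat1 had means of 11.7 ± 5.86, 10.8 ± 4.05 and 12.8 ± 6.92 CPM, and differences of -0.12 and 0.12 (SE 0.50 each). Gas5 had 28.3 ± 4.71, 30.6 ± 6.70 and 30.3 ± 12.5 CPM, and differences of 0.10 and 0.09 (SE 0.31 each). The Snhg genes differed from WT by -0.38 to 0.98, with SEs of 0.47 to 1.43. DESeq2 called none of the members in OPCs, where it called 0.266%, 0.367% and 0.373% of genes.

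Between the mutants, no member was called within SSCs (0% of genes by edgeR, 5.53% at an unadjusted p under 0.05, none of the members; 0.993% by DESeq2, none of the members). Neat1 differed by 0.69 (SE 0.41), Malat1 by 0.26 (SE 0.51) and Gas5 by 0.33 (SE 0.22) on the log2 scale, 1013/1013 over +/1013, all with overlapping ranges. Snhg8 and Snhg12 lay lower in 1013/1013 without overlap (9.33% of genes did so), with differences of -0.43 (SE 0.59) and -2.52 (SE 1.65).

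Whether the genotype difference in SSCs departs from that in OPCs was tested directly. For Neat1 the difference of differences was -2.77 (SE 0.66, unadjusted p = 0.000958, adjusted p = 0.218 by edgeR) for +/1013 and -2.36 (SE 0.71, unadjusted p = 0.00510, adjusted p = 0.187) for 1013/1013. For Malat1 it was -1.87 (SE 0.63, adjusted p = 0.380) and -1.70 (SE 0.68, adjusted p = 0.277). Gas5 had -0.87 (SE 0.38, adjusted p = 0.454) and -0.56 (SE 0.41, adjusted p = 0.530). No member was called by edgeR, with 0.084% and 0.153% of genes called. DESeq2 called 2.58% and 7.03% of genes, and of the members Neat1 in both (adjusted p = 0.00346 and 0.0230). Thus by the main test no difference in the allele's effect between cell types was shown. For 1013/1013 the median of all genes was itself -0.386, and -0.256 with upper-quartile scaling.

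Genes that act with these RNAs were examined as lists. Proteins of nuclear speckles, where Malat1 resides, had 7 of 13 tested members called higher and 1 lower in WT SSCs against WT OPCs, where 5.55% of all genes were called higher and 5.86% lower. In +/1013 these shares were 6.44% and 6.02%, and in 1013/1013 6.94% and 6.12%, for all lists that follow. Srsf5, a serine/arginine-rich splicing factor, was at 291.5 against 42.4 CPM as group means (log2 difference 2.78, SE 0.34, adjusted p = 0.000209 by edgeR). Son, a core organizer of speckles, was at 127.8 against 47.5 CPM (1.43, SE 0.20), and Srsf3 at 188.8 against 86.5 CPM (1.13, SE 0.28). Ddx39b, an RNA helicase of splicing and export, fell by 1.33 on the log2 scale (SE 0.19) from 153.1 to 61.0 CPM. In +/1013, 4 were called higher and 1 lower, and in 1013/1013, 2 and 1. Within SSCs none of 13 was called between mutants and WT, with medians of -0.46 and -0.53 for +/1013 and 1013/1013. Srsf5 lay lower than WT without overlap in both mutants, at means of 193.6 and 154.8 CPM (log2 differences -0.61 and -0.91, adjusted p = 0.234 and 0.163).

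Paraspeckle proteins, which assemble on Neat1, had 3 of 15 called higher and none lower in WT SSCs against OPCs. Among them, Ewsr1 was at 174.5 against 91.3 CPM as group means (log2 difference 0.94, SE 0.23, adjusted p = 0.0189 by edgeR) and Hnrnpk, an abundant RNA-binding protein, at 473.4 against 266.7 CPM (0.83, SE 0.17). Hnrnpk was also called higher in SSCs in +/1013 (1.24, SE 0.17) and in 1013/1013 (1.05, SE 0.19), and Ewsr1 in +/1013 (0.81, SE 0.23). Sfpq, a core paraspeckle protein, was called lower in SSCs in +/1013 (-0.82, SE 0.20), and Rbm14 lower in 1013/1013 (-1.46, SE 0.30). Within SSCs none of the 15 was called by genotype, and their medians of -0.18 and -0.31 were close to those of all genes.

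Other nuclear or imprinted long noncoding RNAs had 4 of 10 called higher and none lower in WT SSCs. Firre, a nuclear transcript of the X chromosome, was at 43.3 against 0.719 CPM (log2 difference 5.91, SE 1.16, adjusted p = 0.00501 by edgeR). Meg3, an imprinted transcript, was at 16.1 against 0.0778 CPM, Norad at 53.4 against 22.6 CPM, and Miat at 4.37 CPM against 0 counts in all 3 OPC WT libraries. In SSC mutants against WT none was called, with medians of -0.61 (+/1013) and -2.13 (1013/1013) and 9 of 10 below 0 in each. In single libraries Firre was at 37.8, 56.7 and 35.3 CPM in SSC WT and at 1.02 to 10.2 CPM in the 5 mutant SSC libraries. The same WT libraries held the highest no-feature shares; their part in this was not tested.

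Other snoRNA host long noncoding RNAs, of which 14 of 16 were found, had 5 of 13 called higher and 1 lower in WT SSCs. Snhg20 was at 6.51 against 0.489 CPM (log2 difference 3.72, SE 0.94), Snhg16 at 3.41 against 0.349 CPM (3.28, SE 0.82) and Snhg15 at 10.6 against 1.94 CPM (2.45, SE 0.73). Snhg11 was at 1.76 CPM against 0 counts in all 3 OPC WT libraries. Snhg17 was the remaining call higher (1.96) and Snhg18 the call lower (-1.46), both named after their values were seen. In +/1013 and 1013/1013 none of the 13 was called. Within SSCs the medians were -0.32 and -0.81 for the mutants against WT, with 11 of 12 and 9 of 12 below 0 and none called.

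Protein-coding genes that host snoRNAs, mainly of ribosomal proteins and translation factors, had mostly positive log2 differences between mutants and WT in SSCs, none of them called by edgeR. Of 20, 18 had values above 0 in +/1013 against WT and 19 in 1013/1013, with medians of 0.90 and 0.95, against -0.11 and -0.23 for all genes. By edgeR, 15 and 14 of the 20 had an unadjusted p under 0.05, against 17.3% and 18.3% of all genes. Of the members, 2 of 7 lay above 0 in +/1013 and 0 of 7 in 1013/1013. In the differences of differences 1 host was called for each mutant, both named after their values were seen: Rpl7a in +/1013 (1.35, SE 0.20, adjusted p = 0.0449 by edgeR) and Rpsa in 1013/1013 (1.69, SE 0.26, adjusted p = 0.0230). Eef2, translation elongation factor, was at 297.8, 388.4 and 371.8 CPM in SSC WT, at 583.6, 524.5 and 684.4 CPM in SSC +/1013, and at 689.6 and 693.3 CPM in SSC 1013/1013 (log2 differences 0.74 and 0.98, adjusted p = 0.158 and 0.109 by edgeR). All mutant libraries were above all WT libraries for Eef2. DESeq2 called Eef2 in both mutants (adjusted p = 0.00965 and 0.000703), where it called 8.33% and 10.4% of genes. Between SSCs and OPCs in WT, 11 of 20 were called higher and 6 lower. Eif4a1, a translation initiation helicase, was at 219.5 against 24.1 CPM (3.19, SE 0.26) and Rpsa at 75.6 against 8.95 CPM (3.08, SE 0.19), while Eef2 fell by 1.44 on the log2 scale (SE 0.22). Ribosomal protein genes have many near-identical copies in the genome, so their unique counts are uncertain; reads with more than 1 location made up 5.10% to 10.4% of the total in a library. Within OPCs the medians were -0.03 and -0.06.

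Proteins of the snoRNA particles had 3 of 13 called higher and 2 lower in WT SSCs against OPCs (5.55% and 5.86% of all genes), and their median of 0.21 was near the 0.17 of all genes. Fbl, the methyltransferase of box C/D particles, was at 11.9 against 2.74 CPM (2.12, SE 0.39), and Snu13 at 21.9 against 6.49 CPM (1.75, SE 0.30); Nhp2 fell by 1.12 on the log2 scale (SE 0.23). Fbl and Snu13 were also called higher in both mutants. In SSC mutants against WT, none was called and the medians were 0.37 and 0.48.

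Nonsense-mediated decay factors, which set the level of many spliced host transcripts, had none of 10 called in WT SSCs against OPCs by edgeR. Of these, 3 had an unadjusted p under 0.05 by that test. The share of all genes at that p is not given here, so this count cannot be set against it. By DESeq2, Upf1 had an adjusted p of 0.290 and Smg6 one of 0.0586. In +/1013, 1 was called higher, and in 1013/1013, 1 higher and 1 lower. Upf1, the central helicase of this pathway, was at 76.5, 112.1 and 84.0 CPM in SSC WT, at 38.0, 14.6 and 71.9 CPM in SSC +/1013 and at 25.6 and 41.7 CPM in SSC 1013/1013. The mutants lay below WT without overlap, with log2 differences of -1.15 (SE 0.52, adjusted p = 0.300) and -1.43 (SE 0.60, adjusted p = 0.266). Upf3a, another factor of the pathway, lay the other way, at 33.8, 29.9 and 26.3 CPM in SSC WT, at 39.8, 44.1 and 38.1 CPM in SSC +/1013 and at 60.5 and 41.7 CPM in SSC 1013/1013. Its mutants lay above WT without overlap, with a log2 difference of 0.79 in 1013/1013 (SE 0.23, adjusted p = 0.164 by edgeR). Of nuclear exosome factors, which degrade RNA in the nucleus, 2 of 10 were called higher in WT SSCs, Pabpn1 (1.72, SE 0.42) and Zfc3h1 (1.63, SE 0.35), and none in the mutants or between genotypes in SSCs. Within OPCs none of the genes of any of these lists was called by genotype.

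**Figure D4:**
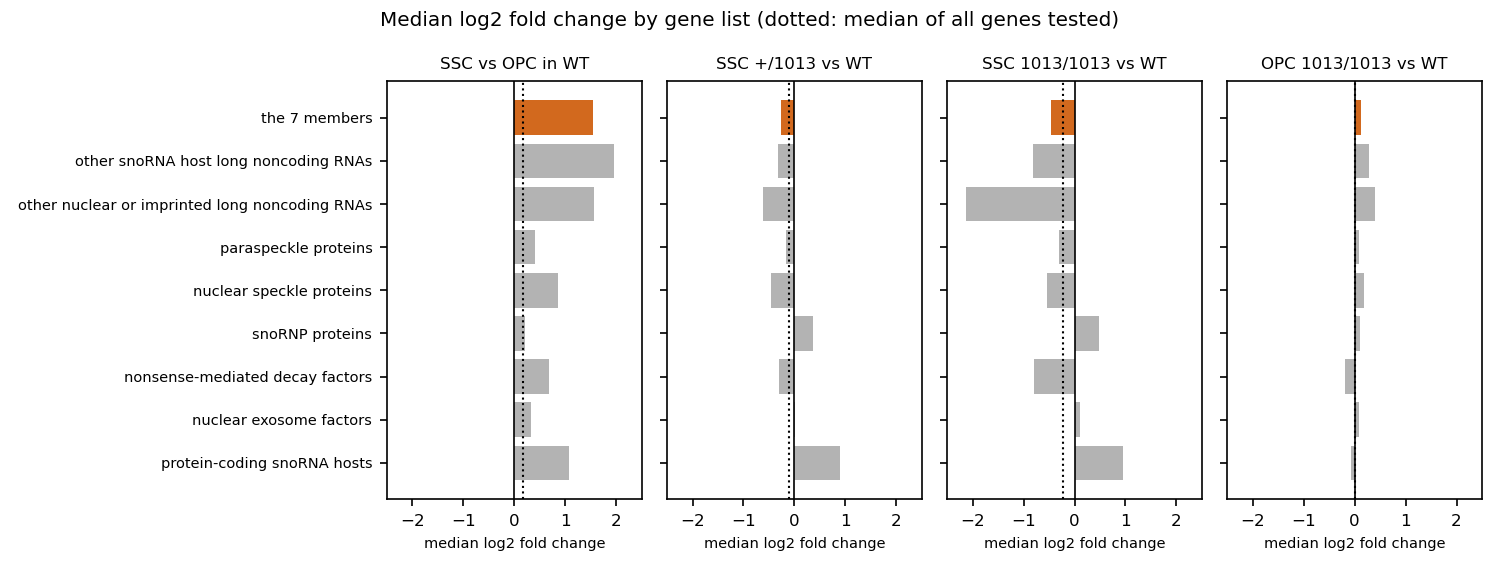
Median log2 differences (horizontal axis) of the members and of 8 lists of related genes in 4 comparisons, with the median of all genes tested as a dotted line. In SSC 1013/1013 against WT the bar of other nuclear or imprinted long noncoding RNAs reaches -2.13 and that of protein-coding snoRNA hosts 0.95, and in OPC 1013/1013 against WT the bars lie between -0.20 and 0.39.

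The genes most like each member were found by Pearson's correlation of log2 CPM over the 17 libraries among the 8285 genes averaging 10 CPM or more. These values are descriptions, since libraries share cell type and depth. Among the genes most like Neat1 was Dtx3 (r = 0.943), and Gas5 was most like Hnrnpdl (0.944), Dst (0.936) and Rbm39 (0.916). Malat1 was most like Vps13b (0.849), Trrap (0.771) and Nfx1 (0.747). Snhg1 was nearest to Rsrc2 (0.882), Snhg6 to Dab2 (0.894), Snhg8 to Ccdc66 (0.954) and Snhg12 to E2f6 (0.893). Among the members, Snhg1 and Snhg8 were the most alike (0.894), then Neat1 and Gas5 (0.887), while Malat1 and Neat1 had r of 0.412.

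With the mean of each cell type subtracted, the picture of Malat1 and Neat1 changed. They had r of 0.884 with each other, and Malat1 was then the gene most like Neat1. With the mean of each of the 6 groups subtracted, r was 0.655 for Malat1 and Neat1, 0.528 for Malat1 and Gas5 and 0.711 for Snhg1 and Snhg8. Malat1 and the Snhg genes had r of -0.208 to 0.066 on that scale.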

How the data were processed

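The deposited files hold raw read counts per gene, 1 file for each of 17 libraries; per the study's methods, the authors amplified poly(A) RNA (SMART-Seq v4, 400 to 1000 pg, 12 PCR cycles), made Nextera XT libraries, removed reads under 50 bases, mapped them to mm10 (STAR) and assigned them to genes (HTSeq). Versions, annotation release and counting settings are not given in the sources used here, so strandedness is unknown. PCR copies were not removed by molecular identifiers, so counting error is a lower limit.

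Identifiers were matched without version to GENCODE M21 (55154 of 55335 genes). Rows for reads in no feature, ambiguous or of more than 1 location stayed out of library sizes; as percentages of all reads they made up 1.15 to 4.15, 1.87 to 3.93 and 5.10 to 10.4. The members and lists were chosen with earlier results of these data known. Members were compared with edgeR 4.0.16 (quasi-likelihood test, TMM, filterByExpr, R 4.3.3) within cell type (9 OPC or 8 SSC libraries), and with all 17 libraries for SSCs against OPCs and for differences of differences (11 comparisons). Calls needed a 1.5-fold difference and a Benjamini-Hochberg adjusted p, over all genes, below 0.05. SE is the log2 difference over the square root of F. All members are named in each comparison; of a list, up to 4 called genes with the largest difference, otherwise the 2 with the highest level. Alternatives were DESeq2 1.42.0 (after the same filter), other scalings, filters and fits, a replicate block, and each library left out; after the data were seen, the no-feature share as a covariate and leaving out 3 libraries with over 2000 CPM of hematopoietic markers were added. The fits were tested on simulated data. No pair of replicates agreed within sampling noise. Some genes of the lists and of the most alike genes are not reported here. Same-numbered libraries of OPC +/1013 and OPC 1013/1013 had deviations with correlations of 0.102, 0.104 and 0.135. Differently numbered OPC libraries reached 0.301 (WT replicate 3 with 1013/1013 replicate 2). Whether replicate numbers pair the libraries is therefore unknown, and the labels do not state a pairing.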

Additional observations from a re-analysis of the deposited data

How the results depend on the processing

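DESeq2 called 2 members in SSC 1013/1013 against WT, 3 in SSC +/1013 against WT, 4 in SSCs against OPCs of WT, 2 of 1013/1013, and 1 in each difference of differences (Neat1). At least 10 counts in every library, which dropped Snhg12, gave 1 in SSC +/1013 against WT (Neat1), 4 in SSCs against OPCs of WT and 2 of 1013/1013. One fit of all 17 libraries gave 1 in SSC +/1013 against WT (Neat1). Bias-adjusted quasi-likelihood gave 4 (WT) and 2 (1013/1013). No filter gave 1 in SSCs against OPCs of +/1013. Only the groups compared gave 0 in 1013/1013, as did leaving out the libraries rich in hematopoietic markers. With only the groups compared, Malat1 was also called in SSCs against OPCs of WT. The no-feature share as a covariate gave 0 (WT) and 2 (1013/1013), the latter Neat1 higher and Malat1 lower in SSCs. It also added Malat1, lower in SSCs, to the calls of +/1013. With 1 library left out, counts ran from 0 to 1 in SSCs against OPCs of +/1013 and were at most 2 in 1013/1013. Fits that left a lone SSC 1013/1013 library are not counted here, since a lone library was assumed to vary like the other groups. Except for DESeq2, the shares of all genes called under these settings are not given here. These counts of members therefore cannot be set against all genes. The causes were not tested.

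With the no-feature share as a covariate, values changed sign in OPC 1013/1013 against WT (Malat1 -0.23, Neat1 -0.24, Gas5 -0.13, Snhg12 -1.43), OPC 1013/1013 against +/1013 (Malat1 -0.24, Neat1 -0.18), SSC 1013/1013 against WT (Malat1 0.58), SSC +/1013 against WT (Malat1 1.10, Snhg8 -1.16, Snhg12 -8.76), SSC 1013/1013 against +/1013 (Malat1 -0.52, Neat1 -0.016, Snhg1 0.12), SSC against OPC of WT (Malat1 -1.41), 1013/1013 difference of differences (Malat1 0.34, Gas5 0.35, Snhg1 -0.20, Snhg12 0.87), +/1013 difference of differences (Malat1 0.48, Gas5 0.078, Snhg1 -0.15, Snhg12 1.91). With the replicate block, values changed sign in OPC 1013/1013 against WT (Snhg12 -0.53), 1013/1013 difference of differences (Snhg1 -0.15), +/1013 difference of differences (Snhg1 -0.0074). With the hematopoietic-rich libraries left out, values changed sign in OPC +/1013 against WT (Malat1 -0.0093, Gas5 -0.012), OPC 1013/1013 against +/1013 (Gas5 0.21, Snhg1 0.23, Snhg8 0.45), SSC +/1013 against WT (Snhg8 -0.033), 1013/1013 difference of differences (Snhg1 -0.071, Snhg8 -0.38). With at least 10 counts in every library, values changed sign in 1013/1013 difference of differences (Snhg1 -0.0092). With 1 library left out, ranges crossed 0 in OPC 1013/1013 against WT (Malat1 -0.16 to 0.37, Neat1 -0.40 to 0.60, Gas5 -0.27 to 0.30, Snhg8 -0.92 to 0.070, Snhg12 -1.19 to 0.93), OPC +/1013 against WT (Malat1 -0.33 to 0.28, Neat1 -0.35 to 0.38, Gas5 -0.070 to 0.23, Snhg1 -0.48 to 0.051, Snhg6 -0.17 to 0.58, Snhg8 -0.55 to 0.0092), OPC 1013/1013 against +/1013 (Malat1 -0.24 to 0.45, Neat1 -0.30 to 0.48, Gas5 -0.39 to 0.19, Snhg1 -0.28 to 0.21, Snhg6 -0.023 to 0.83, Snhg8 -0.57 to 0.42), SSC 1013/1013 against WT (Snhg1 -0.81 to 0.051, Snhg8 -0.67 to 0.24), SSC +/1013 against WT (Snhg1 -0.70 to 0.026, Snhg8 -0.033 to 0.67), SSC 1013/1013 against +/1013 (Malat1 -0.76 to 0.79, Neat1 -0.16 to 1.16, Snhg1 -0.58 to 0.38, Snhg6 -0.65 to 0.20), SSC against OPC of 1013/1013 (Snhg12 -7.12 to 1.99), 1013/1013 difference of differences (Snhg1 -0.45 to 0.38, Snhg8 -0.31 to 0.69), +/1013 difference of differences (Snhg1 -0.41 to 0.31, Snhg12 -0.87 to 0.12). Correlations of deviations did not show that replicate numbers pair the samples. Same-numbered libraries had values from -0.186 to 0.229 in OPCs and -0.064 to 0.101 in SSCs. Only between OPC +/1013 and OPC 1013/1013 was every same-numbered value over 0.1. The replicate block changed no call of a member in any comparison. Snhg6, Snhg8 and Snhg12 rest on few counts in OPCs, which limits their precision.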
